A study of Mus musculus with 12 samples.

Results

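Transforming growth factor beta (TGF-beta) was examined as a family of 10 genes: the ligands Tgfb1, Tgfb2 and Tgfb3, the receptors Tgfbr1, Tgfbr2 and Tgfbr3, the latent binding proteins Ltbp1 and Ltbp2, and the feedback inhibitors Smad7 and Skil. A probe set, the group of short probes that reads one transcript on the array, was taken as a member when the array annotation named one of these genes and no other. This gave 23 probe sets of the 45037 on the array. TGF-beta is secreted in a latent form held to the extracellular matrix by latent binding proteins. Once released, the ligand joins the type II receptor to the type I receptor, which phosphorylates SMAD2 and SMAD3 and sends them to the nucleus with SMAD4. In bone marrow the pathway is known for restraining hematopoietic stem cell cycling and for directing mesenchymal cells toward matrix-producing, chondrogenic and contractile states.

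RNA came from bone marrow mesenchymal stem cells (MSCs) of C57BL6/J mice aged 6 weeks, sorted as Sca-1+ and PDGFR-α+. In the co-culture group (labelled Assay, 6 arrays), 3000 MSCs and 7000 hematopoietic stem cells (HSCs, sorted as Lin-, Sca-1+ and c-Kit+) were seeded per well, and in the control group (labelled Cont, 6 arrays) the MSCs were kept without HSCs. Both were cultured for 6 days. The paper's co-culture methods name MSCs from mice with green fluorescent protein (EGFP), and its flow cytometry after co-culture sorted cells on EGFP. Its discussion of the arrays speaks of separated cells, but its array methods describe no second sort before RNA extraction. The labels do not say whether HSCs and MSCs of these arrays touched or were kept apart by a membrane. Fewer cells of a type and less RNA per cell cannot be told apart in these values. Nothing in the labels says whether the arrays of a group came from separate mice or cultures, so p-values measure the spread between these arrays, which may be technical.

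The arrays were close in scale, with a trimmed mean signal of 496.6 to 497.3. They went against their labels in 2 ways. All mice were labelled male, yet the Y-linked gene Eif2s3y had a signal of 0.8 to 13.6 in co-cultures 3 and 4 and 0.5 to 1.3 in controls 3 and 4, against 1022 to 1331 in the other co-cultures and 2604 to 2845 in the other controls. The X-inactivation transcript Xist was at 13136 to 17840 in all co-cultures, and at 16810 to 21978 in controls 3 and 4 but 60.5 to 118 in the other controls. Differences without the arrays numbered 3 and 4 are given beside those of the brighter probe sets. In the arrays that then remain, Xist and Eif2s3y each separate the groups in full. Group and the signal of these genes cannot be told apart there. The sorted cells were also to lack CD45, yet its gene Ptprc had a signal of 11519 to 12642 in the co-cultures and 10425 to 13144 in the controls, and the macrophage receptor gene Csf1r one of 24889 to 39489 in the co-cultures and 22598 to 38152 in the controls. The MSC marker Pdgfra was at 407 to 1464 in the co-cultures and 583 to 1162 in the controls. The HSC marker Kit was dim, at 2.3 to 63 in the co-cultures and 35.1 to 67.2 in the controls on its brightest probe set. That probe set differed by -0.35 on the log2 scale and the other Kit probe set by 0.26, so the direction depends on which is read. None of the genes of 8 marker lists passed the adjusted limma test. At an unadjusted limma p under 0.05, the dim genes Lum (stromal, 1.03 on the log2 scale) and Cd34 (stem and progenitor, 0.74) were higher in co-culture. Acta2 (-0.36) and Tagln (-0.47) of the smooth muscle list were lower. On the log2 scale, 3 of 10 stromal genes were higher in co-culture (Col1a2 -0.25 and Cxcl12 -0.43 were the brightest), 3 of 10 macrophage genes (Ctss 0.05, Lyz2 -0.0015), 3 of 5 leukocyte genes (Cd53 0.01, Laptm5 -0.01), 3 of 4 stem and progenitor genes (Gata2 0.18, Kit -0.35), 3 of 5 megakaryocyte genes (Pf4 -0.01, Itga2b 0.08), 5 of 5 endothelial genes (Kdr 0.29, Emcn 0.14) and 3 of 3 erythroid genes (Epor 0.02, Hba-a1 0.62), while 1 of 5 smooth muscle genes was higher. On the first principal component, which held 21.6% of the variance, the arrays fell into 2 sets of 6, with 3 co-cultures and 3 controls in each: co-cultures 1, 4 and 6 with controls 2, 4 and 6 on the positive side, and the remaining arrays on the negative side.

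None of the 23 TGF-beta probe sets differed between co-culture and control at an adjusted p under 0.05 (limma on log2(signal + 16), Benjamini-Hochberg over all probe sets). Over the whole array 2 probe sets passed (0.00444%). Of the members, 17 were lower and 6 higher in co-culture, with a median difference of -0.10 on the log2 scale, against 0.02 over all 45037 probe sets. Read on 1 probe set each, 46.8% of 18193 genes were lower, with a median of 0.01. The 23 members include up to 4 probe sets of a gene, so they are not 23 separate readings. The 95% interval of the difference included 0 for 22 of the 23 probe sets. Before adjustment, 1 member was lower and 0 were higher at p under 0.05, where 1.55% of all probe sets were lower and 2.81% higher. The within-group SD of the members had a median of 0.35 on the log2 scale, near the 0.33 of all probe sets.

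**Figure D1:**
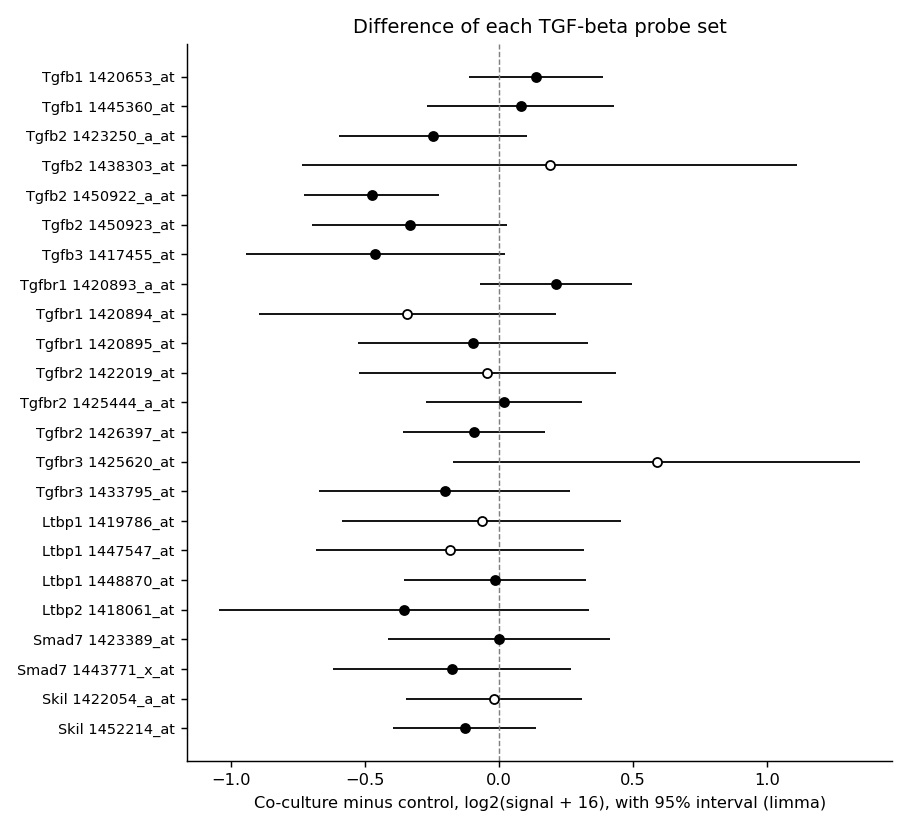
Difference of each of the 23 TGF-beta probe sets, co-culture minus control, in log2(signal + 16), with the 95% interval from limma (6 arrays a group). Open circles mark probe sets with a mean signal under 100. Only the interval of Tgfb2 probe set 1450922_a_at, at -0.73 to -0.22, lies wholly on one side of 0.

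Among the 23 probe sets, only one, of a ligand gene, separated the groups. Tgfb2, which encodes the ligand best known for its roles in heart, eye and skeletal development, was lower in co-culture on the probe set 1450922_a_at. Its signal was 200.2, 183, 185, 201, 147 and 154 in the co-cultures, against 301, 233, 213, 238, 245 and 298 in the controls. All 6 co-cultures lay below every control, an arrangement found for 0.0733% of all probe sets. That share is no higher than the 1 in 924 that random labels would give, and this probe set is 1 of 23 examined. The mean was 178 ± 22.9 in co-culture and 255 ± 36.4 in control (SD, n = 6 each). The difference was -0.48 (SE 0.12) on the log2 scale, with an adjusted limma p of 0.69. The exact permutation p was 0.0022, the smallest that 6 against 6 arrays can give. Any full separation gives that p, so it restates the arrangement, and it was not adjusted over the 23 probe sets. Without the arrays numbered 3 and 4 the difference was -0.61, and within the 2 sets of arrays it was -0.44 and -0.51.

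The other Tgfb2 probe sets overlapped between the groups. Probe set 1450923_at read 229.9, 238, 184, 264, 122 and 218 in the co-cultures, against 323, 286, 264, 230.0, 209.6 and 271 in the controls. Its difference was -0.33 (SE 0.17, exact permutation p 0.071), or -0.43 without the arrays numbered 3 and 4, and 2 co-cultures lay below every control. It was -0.13 in the positive and -0.54 in the negative set of arrays. Probe set 1423250_a_at read 252, 184, 248, 277, 158 and 247 in the co-cultures, against 327, 244, 334, 275, 194 and 261 in the controls, a difference of -0.25 (SE 0.16), or -0.27 without the arrays numbered 3 and 4. It was -0.0064 in the positive and -0.49 in the negative set, so on these 2 probe sets the lower values lay mostly in 1 set. Co-culture 5 was the lowest array on all 3 of these probe sets. A further dim probe set, 1438303_at, ranged over 3.7 to 80.9 in co-culture and 2.4 to 57.2 in control and differed by 0.19 (SE 0.43). Over the 12 arrays the 3 brighter probe sets correlated with each other at r = 0.53 to 0.74, values that share the same arrays and scaling.

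Tgfb3, a ligand expressed in skeletal and connective tissue and used to drive chondrogenesis in culture, was measured by a single probe set, 1417455_at. Its signal was 187, 132, 153, 202, 78.5 and 161 in the co-cultures, against 320.0, 227, 244, 176, 138 and 185 in the controls. Co-cultures 2 and 5 lay below every control, and controls 1, 2 and 3 above every co-culture. The means were 152 ± 43.9 in co-culture and 215 ± 63.7 in control (SD, n = 6 each), a difference of -0.46 (SE 0.22, exact permutation p 0.078). Without co-culture 5 the difference was -0.31, and without the arrays numbered 3 and 4 it was -0.58. It was -0.09 among the arrays on the positive side of the first component and -0.84 among those on the negative side.

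Tgfb1, the ligand abundant in leukocytes and platelets, leaned the other way. Probe set 1420653_at read 593, 617, 452, 512, 731 and 563 in the co-cultures, against 541, 456, 494, 571, 538 and 518 in the controls. The groups overlapped, with co-culture 5 the highest array and co-culture 3 the lowest. The difference was 0.14 (SE 0.12, exact permutation p 0.23), or 0.27 without the arrays numbered 3 and 4. The second probe set, 1445360_at, ranged over 117 to 239.6 in co-culture and 122 to 192 in control and differed by 0.08 (SE 0.16), or by 0.27 without those arrays. Co-culture 5, the highest array for Tgfb1, was the lowest for Tgfb3. On the brightest probe set of each gene, Tgfb2 and Tgfb3 correlated at r = 0.91 over the 12 arrays, Tgfb1 and Tgfb2 at -0.61, and Tgfb1 and Tgfb3 at -0.64. Without co-culture 5 these values were 0.85, -0.32 and -0.30, so the opposite course of Tgfb1 rested largely on that array. The genes most like Tgfb1 were Gpx1 (r = 0.88), Atp5e (0.86) and Tomm7 (0.86). Here and for the other members, such genes are the 3 highest of 10179 correlations over 12 arrays. High values arise in a search of that size without any link, and none of these likenesses was tested.

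**Figure D2:**
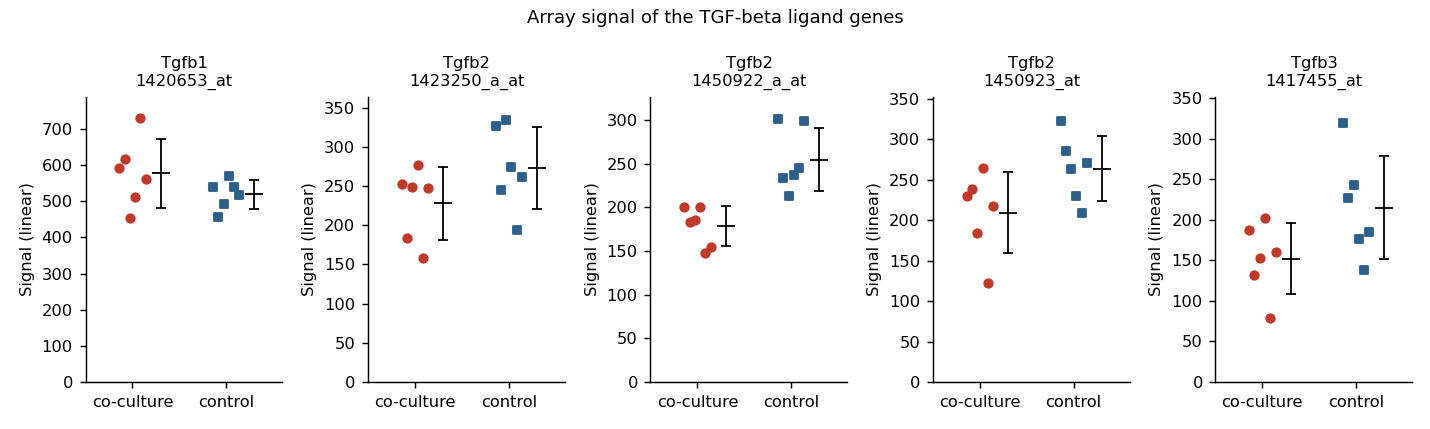
Signal (linear scale) of the TGF-beta ligand probe sets in the 6 co-cultures (circles) and the 6 controls (squares), with the mean and SD beside each group. For Tgfb2 1450922_a_at the co-cultures sit between 147 and 201 and the controls between 213 and 301, whereas the groups overlap in the other panels.

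The promoter of Tgfb2, the gene with the separated probe set, is shown beside that of Tgfb1, whose difference had the other sign, from 250 bases before to 50 after the start of transcription, as RefSeq gives them on GRCm38.p6. Capitals mark matches, on either strand, to the E-box CACGTG, the SMAD box CAGAC, the GC box GGGCGG and the TATA box TATAAA. Tgfb2 is on chr1:186705940-186706239 (minus strand) and Tgfb1 on chr7:25686752-25687051 (plus strand).
Tgfb2: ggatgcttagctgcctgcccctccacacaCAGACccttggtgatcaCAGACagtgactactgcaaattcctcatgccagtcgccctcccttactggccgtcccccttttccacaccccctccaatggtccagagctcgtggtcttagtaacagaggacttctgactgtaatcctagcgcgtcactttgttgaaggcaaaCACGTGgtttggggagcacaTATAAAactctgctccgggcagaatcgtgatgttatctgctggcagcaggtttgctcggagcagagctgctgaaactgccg
Tgfb1: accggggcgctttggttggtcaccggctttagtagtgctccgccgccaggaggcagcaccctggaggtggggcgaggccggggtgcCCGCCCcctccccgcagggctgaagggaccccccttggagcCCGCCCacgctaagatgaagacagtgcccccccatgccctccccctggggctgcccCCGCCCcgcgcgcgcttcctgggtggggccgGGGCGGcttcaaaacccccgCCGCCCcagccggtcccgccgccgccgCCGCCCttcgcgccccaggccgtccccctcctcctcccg
The Tgfb2 promoter held 1 E-box, 2 SMAD boxes and 1 TATA box with no GC box, at 54.3% G and C. The Tgfb1 promoter held 6 GC boxes and none of the other 3 motifs, at 77% G and C. Among 32544 promoters of the same length, 7.17% held an E-box, 49.5% a SMAD box, 35.9% a GC box and 13.6% a TATA box. A cAMP response element (TGACGTCA, in 1.80% of promoters) and an AP-1 site (TGANTCA, in 7.79%) were also searched for and matched in neither window. None of the matches overlapped another. A match describes the letters only, and no binding was measured.

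Tgfb2 and Tgfb3 followed Acta2 and Tagln, contractile genes of smooth muscle and myofibroblasts, from array to array. The list of 5 such markers (Acta2, Tagln, Myh11, Cnn1 and Des) had a summed signal of 12687 to 22567 in the co-cultures and 18649 to 30774 in the controls, with 4 of the 5 lower in co-culture and 0 passing the adjusted test. Acta2, which encodes smooth muscle actin, read 16467, 13739, 13664, 16315, 9962 and 13798 in the co-cultures, against 22637, 16618, 19234, 16582, 14612 and 17838 in the controls. It differed by -0.36 (unadjusted limma p 0.024, adjusted 0.999981). Tagln, which encodes the actin-binding protein transgelin, ranged over 2479.5 to 5665 in co-culture and 3822 to 7586 in control and differed by -0.47 (unadjusted limma p 0.037, adjusted 0.999981). Co-culture 5 was the lowest array for both genes, as it was for Tgfb3, and control 1 the highest for all 3. Acta2 and Tagln made up 98.1% of the summed signal. Of the dimmer markers, the calponin gene Cnn1 correlated with Tgfb2 at r = 0.77 and with Tgfb3 at 0.73 over the 12 arrays, the smooth muscle myosin gene Myh11 at 0.40 and 0.46, and the desmin gene Des at 0.04 and 0.02. Des differed by 0.17 between co-culture and control. All these markers were read on their brightest probe set. On their other probe sets Des differed by -0.45, Myh11 by 0.17, and Acta2 by -0.32 and 0.02.

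On the log2 scale, the summed signal of Tgfb2 correlated with that of these markers at r = 0.97 and rho = 0.94 over 12 arrays (permutation p 1e-05, the smallest that 100000 permutations can give, and 3e-05, adjusted to 0.0004 and 0.0024 over 80 pairs of a member and a marker list). Without the 2 arrays farthest from the median of the markers r was 0.91. It was 0.95 within the co-cultures and 0.95 within the controls, and 0.72 and 0.996 within the positive and the negative set of arrays. For Tgfb3 the values were r = 0.97 and rho = 0.88 (permutation p 1e-05 and 0.00034, adjusted 0.0004 and 0.014), with 0.88 without those 2 arrays, 0.97 within the co-cultures, 0.95 within the controls, and 0.62 and 0.99 within the sets. Among 10179 genes with a mean signal of at least 100, those most like Tgfb3 were Tpm2 (r = 0.97), Acta2 (0.96) and Tagln (0.96). Those most like Tgfb2 were Tpm2 (0.91), Tgfb3 (0.91) and Fermt2 (0.90). Acta2 and Tagln, like Tgfb2 1450922_a_at and Tgfb3, had lower means in co-culture without passing the adjusted test, and their part in the Tgfb2 and Tgfb3 values was not tested.

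**Figure D3:**
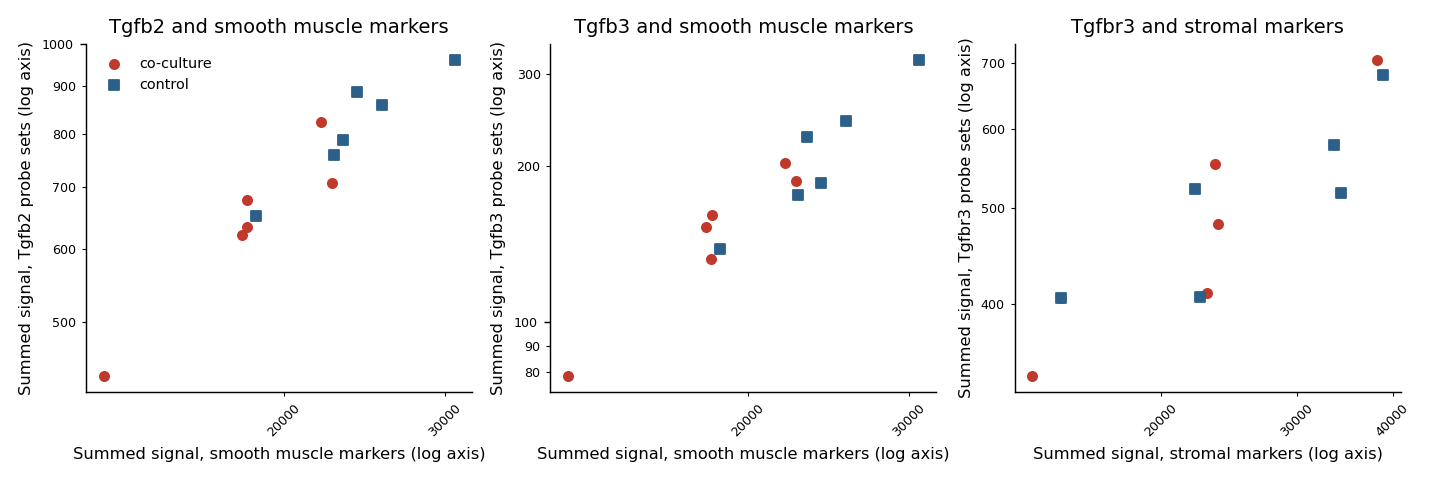
Summed signal of all probe sets of Tgfb2, Tgfb3 and Tgfbr3 (log axis) against the summed signal of a marker list (log axis), for 6 co-cultures (circles) and 6 controls (squares). Each point is an array, and the points run along a rising line in each panel, with r of 0.97, 0.97 and 0.88.

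Of the receptor genes, Tgfbr1, which encodes the type I kinase receptor, varied far more between arrays than between groups. Probe set 1420895_at read 9778, 6227, 7642, 9502, 5954 and 9852 in the co-cultures, against 6207, 10091, 6185, 9662, 8688 and 11997 in the controls. The difference between co-culture and control was -0.10 (SE 0.20, 95% interval -0.53 to 0.33), or -0.22 without the arrays numbered 3 and 4. The 6 arrays on the positive side of the first component read 9502 to 11997 and the 6 on the negative side 5954 to 8688, a full separation that 6.6% of all probe sets showed. The dimmer 1420894_at ranged over 55.8 to 102 in co-culture and 64.9 to 220.0 in control and differed by -0.34 (SE 0.26). Probe set 1420893_a_at ranged over 147 to 186 in co-culture and 106 to 184 in control and differed by 0.21 (SE 0.13), so the 3 probe sets of the gene disagreed in sign. On these 2 dimmer probe sets the sets of arrays overlapped. The positive side read 69.7 to 220.0 on 1420894_at and 134 to 186 on 1420893_a_at, and the negative side 55.8 to 90.1 and 106 to 168. The genes most like Tgfbr1 across arrays were Ids (r = 0.98), Pnn (0.96) and Ppp1r2 (0.96).

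Ltbp2, which encodes a latent binding protein family member that attaches to microfibrils and is thought not to bind latent TGF-beta itself, split the arrays in the same way. Probe set 1418061_at read 839.9, 295, 618, 911, 446 and 906 in the co-cultures, against 687, 1459, 452, 809, 688 and 1021 in the controls. The difference was -0.36 (SE 0.32). It was -0.68 without the arrays numbered 3 and 4, -0.15 without co-culture 2 and -0.18 without control 2. The 6 brightest arrays were the same as those of Tgfbr1, at 809 to 1459 on the positive side and 295 to 688 on the negative side. Zfp664 (r = 0.96), Rab4b (0.95) and Sdf2 (0.94) were most like Ltbp2. The marker lists did not divide as a whole. Of 10 macrophage genes, Itgam and Adgre1 had the same 6 arrays on top, and the other 8 had a lower median in those arrays, among them Csf1r, at 22598 to 31022 on the positive side and 30954 to 39489 on the negative side. Of 5 leukocyte genes Cd53 had those 6 arrays at the bottom, and 3 had a higher median there. Of 4 stem and progenitor genes the transcription factor gene Gata2 had them at the bottom, and the remaining 3 had a higher median there. Because Tgfbr1 and Ltbp2 fell into separate clusters of arrays, no correlation with the marker lists is given for them, and the part of these cells in their values was not tested. The correlations of Tgfbr1 and Ltbp2 with single genes include this split between the sets of arrays.

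The promoters of this pair are shown because the brightest probe sets of both genes had the same 6 arrays on top, a split that 6.6% of all probe sets showed. They are Tgfbr1 on chr4:47352972-47353271 (plus strand, the more upstream of the 2 RefSeq start sites) and Ltbp2 on chr12:84876442-84876741 (minus strand), with capitals as above.
Tgfbr1: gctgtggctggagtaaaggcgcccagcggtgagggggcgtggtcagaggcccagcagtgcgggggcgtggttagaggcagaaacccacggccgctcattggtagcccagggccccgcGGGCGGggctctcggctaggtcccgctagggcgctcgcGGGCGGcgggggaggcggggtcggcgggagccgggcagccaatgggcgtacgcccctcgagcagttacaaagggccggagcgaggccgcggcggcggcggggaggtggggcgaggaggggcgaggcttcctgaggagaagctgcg
Ltbp2: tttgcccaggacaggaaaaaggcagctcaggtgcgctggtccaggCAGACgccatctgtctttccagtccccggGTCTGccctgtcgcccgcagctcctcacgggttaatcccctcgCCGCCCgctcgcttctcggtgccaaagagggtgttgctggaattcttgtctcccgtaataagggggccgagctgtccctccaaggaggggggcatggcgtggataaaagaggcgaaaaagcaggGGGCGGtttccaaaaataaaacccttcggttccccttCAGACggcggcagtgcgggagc
Both held 2 GC boxes. Ltbp2 also held 3 SMAD boxes, this Tgfbr1 window held none, and neither held an E-box or a TATA box. The window at the other Tgfbr1 start site held 1 SMAD box and no GC box, so the contents depend on the start site.

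**Figure D4:**
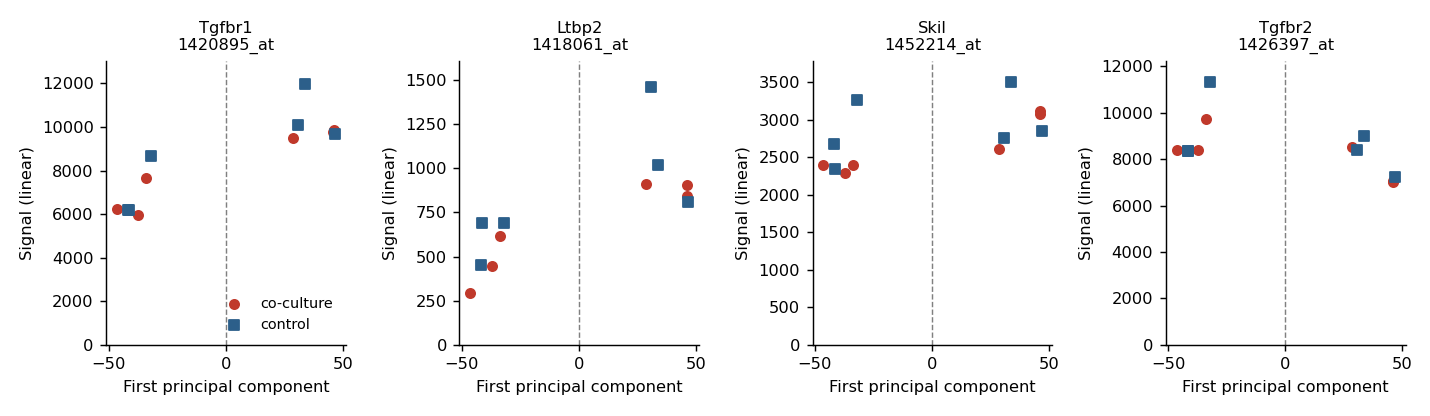
Signal (linear scale) of the brightest probe sets of Tgfbr1, Ltbp2, Skil and Tgfbr2 against the first principal component of each array (no unit), for co-cultures (circles) and controls (squares). The 6 arrays right of 0 lie above the 6 left of 0 for Tgfbr1 and Ltbp2, and the 2 sets overlap for Skil and Tgfbr2.

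Tgfbr2, which encodes the type II receptor that binds ligand first, had a bright probe set with a narrow spread. Probe set 1426397_at read 7021, 8384, 9741, 8537, 8376 and 7060.1 in the co-cultures, against 8366, 8384, 8348, 7238, 11325 and 8987 in the controls. The groups overlapped and differed by -0.10 (SE 0.12, 95% interval -0.36 to 0.17), or by -0.26 without the arrays numbered 3 and 4, with control 5 the highest array. Probe set 1425444_a_at ranged over 103 to 148 in co-culture and 98.6 to 161 in control, a difference of 0.02 (SE 0.13). The third, 1422019_at, was dim at 4.3 to 21.5 in co-culture and 0.6 to 27.3 in control. The genes most like Tgfbr2 across arrays were Enc1 (r = 0.98), Smim10l1 (0.96) and Rab1a (0.95).

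Tgfbr3 encodes betaglycan, the coreceptor that presents ligand, TGF-beta 2 above all, to the signaling receptors. Its brighter probe set, 1433795_at, read 269, 358, 694, 500.4, 476 and 356 in the co-cultures, against 674, 510.5, 570.0, 374, 491 and 378 in the controls. The groups overlapped, with a difference of -0.20 (SE 0.22). It was -0.47 without the arrays numbered 3 and 4, -0.34 without co-culture 3, -0.08 without co-culture 1 and -0.11 without control 1. The dim probe set 1425620_at ranged over 6.5 to 69.5 in co-culture and 5.8 to 31.5 in control, with a difference of 0.59 (SE 0.35, limma unadjusted p 0.12). The 2 probe sets ran opposite to each other over the 12 arrays (r = -0.80), so the direction for the gene depends on which is read.

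The summed signal of Tgfbr3 followed that of 10 stromal markers, among them Col1a2, a fibrillar collagen chain, and Cxcl12, the chemokine that retains HSCs in the marrow. Over all arrays the mean signal was 15224 for Col1a2, 3632 for Cxcl12 and 3377 for the collagen gene Col3a1. It was 64.8 for Lepr, 52.95 for Thy1 and 47 for Lum. The sum therefore mostly follows the brightest genes, and the dim ones add little to it. Cxcl12 ranged over 829 to 8196 in the co-cultures and 1137 to 9227 in the controls, and the sum of the list over 13585 to 38199.9 in the co-cultures and 14797 to 38873 in the controls. The correlation was r = 0.88 and rho = 0.86 over 12 arrays (permutation p 0.00025 and 0.00066, adjusted 0.0067 and 0.018 over the 80 pairs). It was 0.80 without the 2 arrays farthest from the median, 0.92 within the co-cultures, 0.84 within the controls, and 0.80 and 0.91 within the sets. Glb1 (r = 0.94), the procollagen processing enhancer gene Pcolce (0.93) and Arf4 (0.93) were most like Tgfbr3. Tgfbr2 followed the same markers less evenly, at r = 0.78 and rho = 0.77 (permutation p 0.0019 and 0.005, adjusted 0.025 and 0.08), with 0.83 without 2 arrays, 0.99 within the co-cultures, 0.57 within the controls, and 0.97 and 0.40 within the sets. Tgfb1 correlated with 5 leukocyte genes at r = 0.81 and rho = 0.69 (permutation p 0.0016 and 0.016, adjusted 0.025 and 0.13), but at 0.50 without the 2 farthest arrays, so that relation rested on them. Within the co-cultures it was 0.90, within the controls 0.58, and within the sets 0.52 and 0.94.

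Ltbp1, which encodes the protein that tethers latent TGF-beta to the matrix, had nearly equal group means on its bright probe set. Probe set 1448870_at read 224, 195, 317, 314, 222 and 275 in the co-cultures, against 257, 302, 296, 307, 204 and 196 in the controls, with a difference of -0.02 (SE 0.16, 95% interval -0.36 to 0.33), or -0.05 without the arrays numbered 3 and 4. The other 2 were dim, with every array at or below 28.7, and differed by -0.07 and -0.18. The gene most like Ltbp1 was Kitl (r = 0.93), which encodes stem cell factor, the ligand of c-Kit. Syde2 and Gdf3 followed, both at 0.88.

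Smad7 and Skil are induced by TGF-beta and act against it: SMAD7 blocks the type I receptor, and SKIL, also called SnoN, represses SMAD target genes. Smad7 probe set 1423389_at read 268, 307, 205, 249, 217 and 260.4 in the co-cultures, against 374, 188, 303, 321, 209.6 and 164 in the controls. The controls spread more widely, and the means were 251 ± 37.0 in co-culture and 259.9 ± 84.3 in control (SD, n = 6 each), with a 95% interval of the difference of -0.42 to 0.42 and a difference of 0.22 without the arrays numbered 3 and 4. Probe set 1443771_x_at ranged over 66 to 147 in co-culture and 88.5 to 175 in control and differed by -0.18 (SE 0.20). Skil probe set 1452214_at read 3079.6, 2395, 2395, 2616, 2286 and 3117 in the co-cultures, against 2348, 2756, 2679, 2851, 3262 and 3509 in the controls. Co-culture 5 was the lowest array and control 6 the highest, with overlap between the groups and a difference of -0.13 (SE 0.12, 95% interval -0.40 to 0.14), or -0.12 without the arrays numbered 3 and 4. The second Skil probe set, 1422054_a_at, differed by -0.02 (SE 0.15). Skil correlated with Tgfbr1 at r = 0.81 over the 12 arrays, a value that includes the split of Tgfbr1 between the sets of arrays. The genes most like Skil were Smg1 (0.92), Gna13 (0.89) and Rftn1 (0.88). Those most like Smad7 were Rrp15 (0.89), Dusp2 (0.88) and Ybx3 (0.85).

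Other genes of the pathway were read on their brightest probe set, as 6 lists of 67 genes in all, of which 62 were measured. None passed the adjusted test, 2 were lower and 0 higher in co-culture at an unadjusted p under 0.05, and 25 were higher and 37 lower, with a median of -0.03 on the log2 scale. Of all 18193 genes, 267 were lower and 449 higher at that unadjusted p, 46.8% were lower, and the median was 0.01. Of 11 genes of latency and activation, 4 were higher and 7 lower (median -0.05), and those with the smallest p were Emilin1 (-0.23), an inhibitor of TGF-beta precursor processing, and Ltbp4 (-0.62), another latent binding protein, which was dim. Among 6 other receptors, 5 were higher and 1 lower (median 0.03), with Eng, the endothelial coreceptor endoglin, at 0.07 and Acvr2a, an activin receptor, at 0.03. Of 8 genes of signal transduction, 3 were higher and 5 lower (median -0.05), with the kinase gene Map3k7 and its binding partner Tab1 both at -0.16. Of 13 inhibitors, 3 were higher and 10 lower (median -0.01). Pmepa1, itself a TGF-beta target that sequesters SMADs, differed by -0.36 and the ubiquitin ligase gene Smurf1 by -0.09.

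Target genes divided evenly, with 7 of 14 higher and 7 lower (median -0.02). Ccn2, the connective tissue growth factor gene and a classical TGF-beta target, had a signal of 9217, 11315, 11456, 9654, 8099.6 and 7185 in the co-cultures, against 19013, 10742, 15132, 9622, 11274 and 10932 in the controls. The groups overlapped, with control 1 the highest array, and the means were 9488 ± 1705 in co-culture and 12786 ± 3583 in control (SD, n = 6 each). The difference was -0.41 (SE 0.18, unadjusted limma p 0.042, adjusted 0.999981). Col1a1, a fibrillar collagen chain, differed by -0.36. Of 10 other ligands and follistatins, 3 were higher and 7 lower (median -0.20). Gdf11, a TGF-beta superfamily ligand, differed by -0.37 (unadjusted limma p 0.038, adjusted 0.999981) at a low signal of 50.5 to 92.4 in co-culture and 72.7 to 134 in control, and Inhbb, an activin subunit gene, by -0.37.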

How the data were processed

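RNA of 12 samples was hybridised to Affymetrix Mouse Genome 430 2.0 arrays. The deposited values, per the labels, are intensities on a linear scale that the authors made with GCOS version 1.1.1, scaled per array so that trimmed means are nearly equal. Since the scaling equalises arrays, a change in total RNA is not visible. The detection calls, background settings and depth behind a signal were not used here, and the number of arrays limits the precision.

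Signals were transformed as log2(signal + 16), so differences of dim probe sets are understated. Differences between the groups, 6 arrays each, were fitted in R 4.3.3 by limma 3.58.1 (lmFit and then eBayes, without a block, two-sided, Benjamini-Hochberg over 45037 probe sets, threshold 0.05). Single values were also compared by a two-sided exact permutation test over 924 arrangements. Other tests were permutation tests with 100000 resamples (numpy 2.4.6). Of the probe sets, 34945 had 1 gene symbol in the array annotation, 932 several and 9160 none. Genes outside the family were read on the probe set with the highest mean. Promoter sequences came from RefSeq, which held 8 promoters of 6 members. All members were named with every probe set, together with the 2 genes of smallest p in each pathway list, and the 3 genes most correlated with a member on its brightest probe set. Of each marker list the 2 brightest genes were named. Ptprc, Csf1r, Pdgfra, Col3a1, Lum, Thy1, Lepr, Cd34, Itgam, Adgre1, Myh11, Cnn1 and Des were singled out after their values were seen. Members, lists and tests were chosen with earlier results of these data known.

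On simulated data with 45037 probe sets for co-culture against control, the fit recovered 12 of 50 changes of 0.5 on the log2 scale, 43 of 50 of 1, 49 of 50 of 1.5 and 48 of 50 of 2. It also called 10 unchanged probe sets. The changes were placed only in probe sets with a mean log2 signal above the median. The noise was normal and independent between arrays, without the sets of arrays seen on the first component. Recovery among dim members was not simulated. Alternatives were other added constants, quantile normalization, median centring, the replicate number as a block, dropping dim probe sets, a trend and robust fit, the unpaired test that the methods name, each array left out in turn, the arrays numbered 3 and 4 left out, and the mean of the probe sets of a gene. The first principal component as covariate was added after seeing the data.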

Additional observations from a re-analysis of the deposited data

Results flagged for a closer look

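Of 46 sets of 6 values, one for each TGF-beta probe set and group, 2 held an array far from the others, where chance gives about 1 in 20. Both were in co-culture 6. The type II receptor gene Tgfbr2 on probe set 1425444_a_at read 103.3 there, against 130.1 to 147.5 in the other co-cultures. The feedback gene Skil on probe set 1422054_a_at read 120.3 there, against 61.1 to 75 in the other co-cultures.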

How the results depend on the processing

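No TGF-beta probe set passed the adjusted limma test under any of the alternatives, so none changed its side of the threshold. Of 534 alternative differences of members, 494 kept their direction and 40 turned it. Over all probe sets the count called was 2, and it was 1 with 1 added to the signal, 0 with 64 added, 1 under quantile normalization, 1 under median centring, 0 among 26341 probe sets with a mean signal of at least 50, 0 with a trend and robust fit, 1 with the unpaired test of the methods (1129 higher and 739 lower before adjustment), 8 without the arrays numbered 3 and 4, 1 with the first principal component as covariate, and 0 to 4 with each array left out. Before adjustment 1264 probe sets were higher and 700 lower, but 918 were higher and 1010 lower under quantile normalization, and 893 higher and 1065 lower under median centring, and the median of all probe sets ranged over -0.02 to 0.03. The cause of these shifts was not tested. Without the arrays numbered 3 and 4, Xist and Eif2s3y separate the remaining co-cultures from the remaining controls in full.

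Replicate numbers were not taken as pairs: no label says what they mark, and the deviations of same-numbered arrays correlated at -0.16 to 0.15, although the arrays numbered 3 and 4 lacked Eif2s3y signal in both groups. With the number as a fixed replicate block 0 probe sets were called. At an unadjusted limma p under 0.05, 4 members rather than 1 were then lower, 3 of them of the single gene Tgfb2 and the other of Tgfb3. Over all 45037 probe sets, 733 were lower and 1403 higher at that p under the same block. With a random block 2 probe sets were called.

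The sign of 9 of the 23 members turned under some alternative. Without the arrays numbered 3 and 4, Tgfbr2 1422019_at was at 0.0802, Tgfbr2 1425444_a_at at -0.0702, Smad7 1423389_at at 0.2183 and Ltbp1 1419786_at at 0.3026. With 1 added, Tgfbr2 1422019_at was at 0.0622 and Smad7 1423389_at at 0.0023, and with the first component as covariate the last was at 0.0012. Tgfbr2 1425444_a_at was at -0.006 under quantile normalization and -0.0219 under median centring. The mean of both Tgfbr3 probe sets differed by 0.1925. With each array left out in turn, the differences ranged over -0.1973 to 0.0647 for Ltbp1 1419786_at, -0.0883 to 0.0558 for Ltbp1 1448870_at, -0.1344 to 0.0375 for Skil 1422054_a_at, -0.1124 to 0.1103 for Smad7 1423389_at, -0.0397 to 0.1561 for Tgfb1 1445360_at, -0.0426 to 0.4171 for Tgfb2 1438303_at, -0.2034 to 0.0733 for Tgfbr2 1422019_at and -0.0551 to 0.0833 for Tgfbr2 1425444_a_at. Ltbp2 1418061_at ranged over -0.5153 to -0.1486 and Tgfbr3 1433795_at over -0.3418 to -0.0787. Tgfb2 1450922_a_at stayed between -0.5214 and -0.4264 with each array left out, at adjusted limma p of 0.505496 to 0.999987 over all its alternatives.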
